A study of Arvicanthis niloticus with 28 samples.

Results

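The genes of oxidative phosphorylation were taken by symbol from the expression tables of the Nile rat retinal vasculature: all symbols starting with mt-, Nduf, Sdh, Uqcr, Cox or Atp5, except Ndufa4l2. The rule found 116 of the 18970 genes. Of these, 12 are mt- genes, which the mitochondrial DNA encodes, and 104 are nuclear genes. By their textbook roles 80 of the nuclear genes encode subunits of the respiratory complexes, and the other 24 encode assembly factors or associated proteins. Complex I was represented by 7 mt- genes and 36 nuclear subunits, complex II by 4 nuclear subunits, complex III by 1 mt- gene and 8 nuclear subunits, complex IV by 3 mt- genes and 17 nuclear subunits, and complex V by 1 mt- gene and 15 nuclear subunits.

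Oxidative phosphorylation makes most of the ATP of neurons, while endothelial cells are known to rely largely on glycolysis. Complexes I and II pass electrons from NADH and succinate to ubiquinone, complex III passes them to cytochrome c, complex IV passes them to oxygen, and complex V, the ATP synthase, uses the proton gradient that complexes I, III and IV build. Complexes I, III, IV and V are mosaics of subunits made from the mitochondrial DNA and from the nucleus, whereas complex II is wholly nuclear. The mitochondrial genes are transcribed as long polycistronic precursors that are then cut into separate messages.

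The Nile rat (Arvicanthis niloticus) is a diurnal rodent that can develop diabetes on standard laboratory chow, and some rats of the study were fed a high-fiber and others a high-caloric diet. RNA of the whole retinal vasculature of 28 rats was sequenced, with 1 library per rat. All were wild type and carried the label of no treatment, and their age and diet do not stand in the labels. The vessels had been freed from the retina by osmotic lysis, DNase and washing, so retinal cells that cling to them contribute to the libraries. Pre-dropout rats (n = 4, all male) had 17 to 18 acellular capillaries per square mm, which are capillary tubes without living cells. Normal rats (n = 24, 8 males and 16 females) had fewer than 16. Random blood glucose ranged from 52.0 to 443 mg/dL, and 5 rats were over 200 mg/dL, of which 2 were pre-dropout and 3 normal. The libraries were bulk tissue, in which fewer cells of a type and less RNA per cell cannot be told apart.

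The libraries held 153108 to 10029198 estimated read counts, and 2 of the 28 held fewer than 1000000. Where a gene had a count of 0, counting error leaves room for 3 counts, which is 0.299 to 19.6 CPM (counts scaled to 1000000 per library). TPM divides counts by a transcript length and sets every library to the same total. Its order of genes rests on that length, and some orders below turn when read by counts. Dividing the counts by the TPM gives the length that the tables used. The ratio of the lengths of mt-Nd1 and mt-Nd5 was 0.291 to 0.294 in 16 libraries and 0.259 to 0.263 in 12. All 4 pre-dropout rats and 4 of the 5 rats over 200 mg/dL were among the 16, so some results on the groups are also given within them. Most gene estimates, among them those of mt-Cytb and Cox4i1 and the slopes of genes on glucose, are given over both sets together. Of the 10 endothelial markers all stood in the tables, with a summed level of 12180 to 54877 TPM, while the 10 rod photoreceptor markers summed to 124 to 5450 TPM. The 7 markers of Muller glia and astrocytes summed to 3339 to 14640 TPM. In normal rat 9 that sum was above the endothelial one (14640 against 12393 TPM).

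The mitochondrial transcripts in these tables were almost wholly those of 3 genes. mt-Nd1 averaged 80013 TPM ± 30042 (SD, n = 28), mt-Nd5 76589 TPM ± 27681 and mt-Co1 12389 TPM ± 4281. mt-Nd1 and mt-Nd5 encode membrane subunits of complex I, and mt-Co1 encodes the catalytic subunit of complex IV. Together the 3 genes made up 96.3 to 99.9995% of the mt- TPM of a library (median 99.9%). mt-Nd1 was above mt-Nd5 in TPM in 17 rats. By counts, which are not divided by length, mt-Nd5 held 68.7% of the mt- counts, mt-Nd1 20.1% and mt-Co1 10.9%.

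The other 9 mt- genes were read at far lower levels, although they lie on the same small genome. mt-Nd6 averaged 45.3 TPM, mt-Nd2 29.9 TPM, mt-Atp6 21.7 TPM, mt-Co2 20.1 TPM and mt-Co3 18.9 TPM. mt-Nd4l averaged 1.32 TPM, and mt-Nd4 and mt-Nd3 were each under 0.1 TPM. mt-Nd4 and mt-Nd4l had a count of 0 in 25 libraries, mt-Nd3 in 26 and mt-Nd6 in 14. Relative to mt-Nd5, the length that the tables used was 0.974 for mt-Co1, 0.294 for mt-Nd1, 0.235 for mt-Atp6, 0.103 for mt-Co2, 0.0760 for mt-Nd2 and 0.0136 for mt-Nd6 (medians of the 16 libraries). The part of these lengths in the levels was not tested.

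mt-Cytb, the only complex III subunit encoded in the mitochondria, separated the rats into those with and without a sizeable value. It was under 100 TPM in 23 libraries, of which the highest had 92.5 TPM. It was 521 to 6223 TPM in the other 5, namely normal rat 16 with 6223 TPM, normal rat 1 with 5521 TPM, normal rat 15 with 2874 TPM, normal rat 21 with 1566 TPM and normal rat 20 with 521 TPM. These are 1 male and 4 females, at 57.3 to 147 mg/dL. Of the 5, 1 was among the 16 libraries of the higher length ratio and 4 among the 12.

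**Figure D1:**
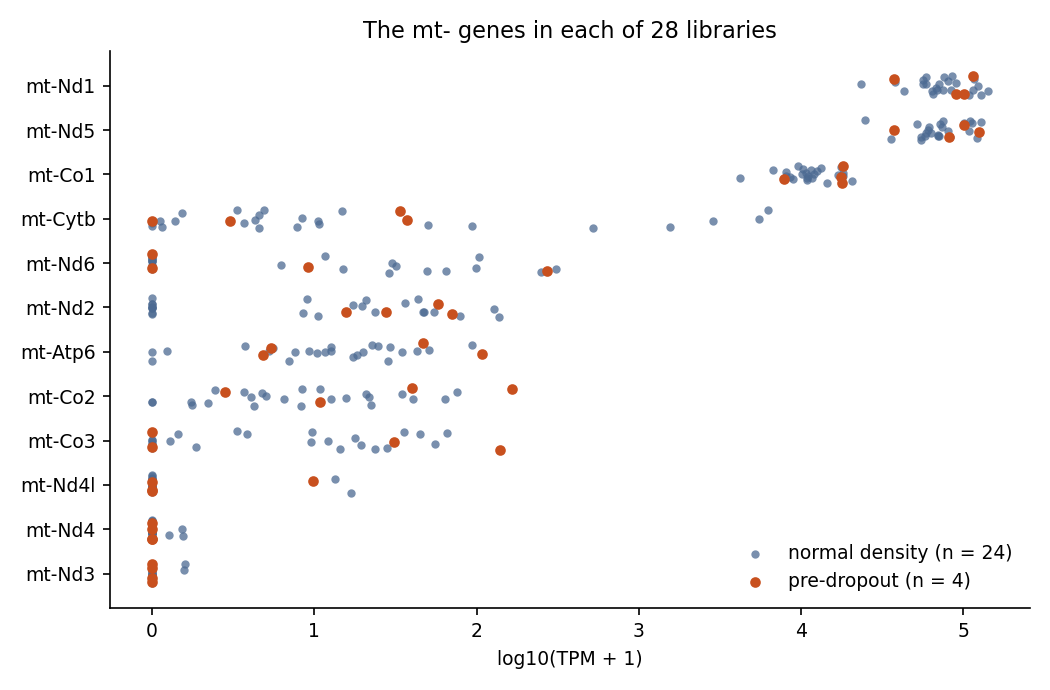
TPM of the 12 mt- genes in the 28 libraries, plotted as log10(TPM + 1), with 1 point per rat and pre-dropout rats in orange. mt-Nd1, mt-Nd5 and mt-Co1 lie apart on the right, mt-Cytb is spread from 0 to 6223 TPM, and mt-Nd3, mt-Nd4 and mt-Nd4l are at 0 in most libraries.

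The nuclear subunits were read at far lower levels than mt-Nd1, mt-Nd5 and mt-Co1, but 8 of the 12 mt- genes had a mean TPM under the nuclear subunit median of 62.8. In complex I the mean over the 7 mt- subunits was 871 times the mean over the 36 nuclear subunits, in TPM per gene, and it rests on mt-Nd1 and mt-Nd5: the other 5 lay under the nuclear median of complex I. The nuclear subunits of complex I summed to 3235 TPM ± 752 (SD, n = 28), those of complex V to 1645 TPM ± 309, complex IV to 1264 TPM ± 400, complex III to 649 TPM ± 240 and complex II to 581 TPM ± 170. The ATP synthase was thus the complex with the smallest spread relative to its mean. The median of the mean TPM per subunit was 63.6 in complex I, 132 in complex II, 65.8 in complex III, 38.0 in complex IV and 72.5 in complex V.

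The most abundant nuclear subunit of complex I was Ndufb7, an accessory subunit of the membrane arm, with a mean of 436 TPM ± 318 (SD, n = 28). Ndufb10 had 293 TPM ± 170, and Ndufc2, with an SD of 136 TPM, lay between them in mean. The SDs of Ndufb7 and Ndufb10 are wider than the gap between their means. Core subunits of the arm that takes up electrons had lower means. Ndufv1, which binds NADH, had 111 TPM ± 47.2, Ndufs3 77.9 TPM ± 55.6, Ndufv2 39.9 TPM ± 21.2, Ndufs1 31.5 TPM ± 14.8, Ndufs8 23.4 TPM ± 21.1 and Ndufs7 11.1 TPM ± 8.65. By counts summed over the rats, Ndufv1, Ndufv2 and Ndufs1 were above Ndufb7, while Ndufs3, Ndufs7 and Ndufs8 were below it. The tables' lengths relative to mt-Nd5 were 0.0626 for Ndufb7, 0.478 for Ndufv1, 0.970 for Ndufv2 and 1.21 for Ndufs1.

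In complex II the membrane anchors Sdhd (273 TPM ± 107) and Sdhc (219 TPM ± 119) had higher mean TPM than the catalytic subunits Sdhb (45.6 TPM ± 31.2) and Sdha (43.9 TPM ± 15.5), which hold the iron-sulfur clusters and the flavin. This order turned with the unit: Sdha had more counts than Sdhd in 27 rats and than Sdhc in 25, and the tables' lengths relative to mt-Nd5 were 2.53 for Sdha, 0.237 for Sdhc and 0.149 for Sdhd. The subunits with the most counts were Ndufb8 in complex I, Sdha in complex II, Uqcrc1 in complex III, Cox6b1 in complex IV and Atp5b in complex V, while Ndufb7 and Uqcr10 had short lengths in the tables (0.0626 and 0.0365). In complex III the small subunit Uqcr10 had the highest mean (177 TPM ± 178), but its median of 100.4 TPM was below those of Uqcrb (127.8 TPM) and Uqcrq (126.3 TPM). The Rieske iron-sulfur protein Uqcrfs1 had 98.5 TPM ± 57.3, and the core protein Uqcrc1 had 28.7 TPM ± 11.4. In complex V the stalk subunit Atp5h (383 TPM ± 137) was highest. The catalytic Atp5b (177 TPM ± 49.3, 99.99 to 299 TPM over the rats) and its partner Atp5a1 (59.2 TPM ± 14.4, 30.2 to 87.9 TPM) had coefficients of variation of 0.279 and 0.243, against a median of 0.714 over the nuclear members.

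In complex IV the highest mean TPM was that of Cox7b (287 TPM ± 214), a small subunit, followed by Cox6a1 (209 TPM ± 140) and Cox6c (185 TPM ± 112). Several subunits of complex IV exist as pairs of isoforms that differ between tissues. Cox4i2, the isoform known from lung and hypoxic cells, was above the common isoform Cox4i1 in 27 of 28 rats, with medians of 118 and 16.6 TPM. By counts it was above Cox4i1 in 17 rats, and the tables' lengths relative to mt-Nd5 were 0.114 for Cox4i2 and 0.510 for Cox4i1. Cox6a1 was above the heart and muscle isoform Cox6a2, and Cox6b1 above the testis isoform Cox6b2, in all 28 rats, and both minor isoforms had a median of 0 TPM. Cox7a2 was above the muscle isoform Cox7a1 in 21 rats, with medians of 37.7 and 19.04 TPM. The levels of Cox4i2 and Cox4i1 over the 28 rats had a Spearman rho of 0.22, as values of the same libraries.

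Whether a nuclear member was seen at all depended on the library. Of the 104 nuclear members 41 had counts in all 28 libraries, comprising 40 of the 80 subunits and 1 of the 24 assembly or associated factors. That factor was Cox7a2l, which joins complexes III and IV into supercomplexes and had the highest mean TPM of all nuclear members (681 TPM ± 345), with a table length of 0.0660 relative to mt-Nd5. At the other end, 10 nuclear members had a count of 0 in 14 or more libraries. These include Atp5e (0 in 21 libraries), Ndufa3 (0 in 20) and Cox5b (0 in 17), which are subunits that the complexes of every tissue hold, beside the tissue isoforms Cox6a2 (0 in 22), Cox6b2 (0 in 20) and Cox8c (0 in 26). Cox7b2 had a count of 0 in every library. The number of nuclear members at 0 was 4 to 37 per library, and its Spearman rho with the number of genes detected was -0.93 over the 28 libraries, which both numbers share.

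**Figure D2:**
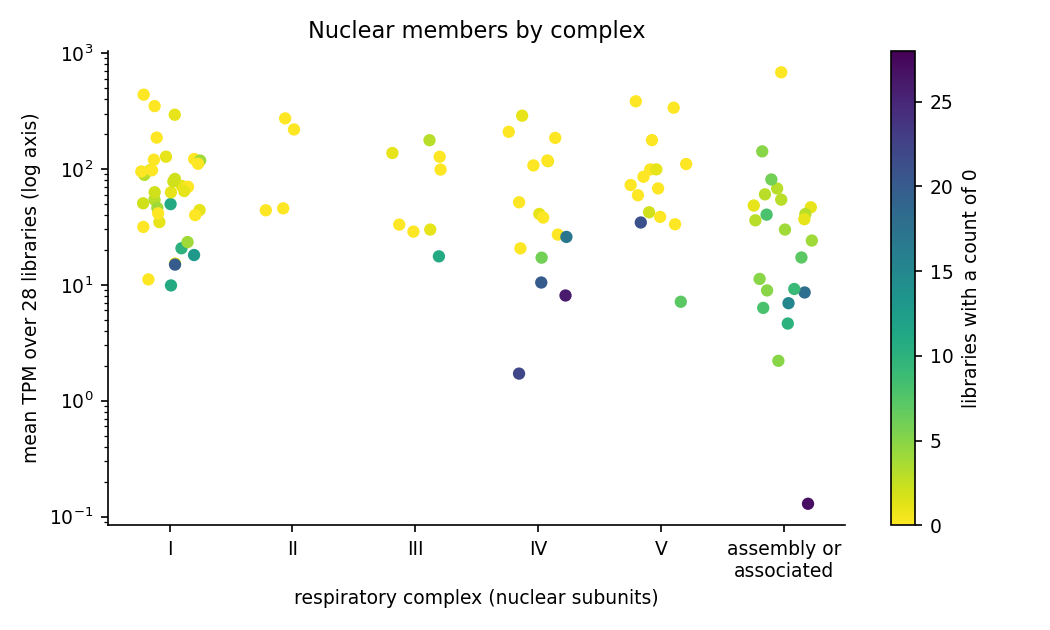
Mean TPM over 28 libraries of each nuclear member on a log axis, by complex for the subunits and in a separate column for the assembly or associated factors, coloured by the number of libraries with a count of 0. Cox7b2, at 0 in all libraries, is not drawn; Cox7a2l stands highest at 681 TPM and many factors have libraries at 0.

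Over the rats the summed share of the mt- genes varied more than that of the nuclear members. The mt- sum was almost wholly mt-Nd1, mt-Nd5 and mt-Co1, while the nuclear sum holds 104 genes. These sums do not compare the spread of single genes. The coefficient of variation was 0.346 for mt-Co1, with medians of 1.63 over the 12 mt- genes and 0.714 over the nuclear members. The mt- genes made up 5.27 to 29.3% of the TPM of a library (16.97% ± 6.15, SD, n = 28), a 5.55-fold range, or 3.57-fold (8.20 to 29.3%) without the smallest library. The nuclear members made up 0.581 to 1.15% (0.884% ± 0.153), a 1.97-fold range. The lowest mt- share was in normal rat 13, which was also the smallest library, and the highest in normal rat 1. The log2 ratio of the mt- to the nuclear sum ran from 2.20 to 5.10.

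The 3 abundant mt- genes varied together over the rats, while the mt- and the nuclear sums had coefficients near 0. In log2(TPM + 1) over the 28 libraries mt-Nd1 and mt-Nd5 had a Pearson r of 0.98 and a Spearman rho of 0.96, mt-Nd1 and mt-Co1 0.86 and 0.83, and mt-Nd5 and mt-Co1 0.88 and 0.86. The mt- sum and the nuclear sum had an r of -0.15 and a rho of -0.13. The points share a library and a TPM total, of which the mt- genes take a large part. With both sums set over the TPM of the genes outside the mt- genes, r was 0.26 and rho 0.29. Within complex I r was -0.18 between the mt- and the nuclear subunits and within complex IV it was -0.01.

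The nuclear members did not follow each other closely either. The median Spearman rho over pairs of the 41 nuclear members with counts in all libraries was 0.06, beside 0.05 over pairs of all 4041 such genes. It was 0.18 for the 8 subunits of complex IV, 0.08 for 13 of complex I and 11 of complex V, 0.06 for 4 of complex II and 0.01 for 4 of complex III. Single pairs ranged from -0.56 to 0.84.

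**Figure D3:**
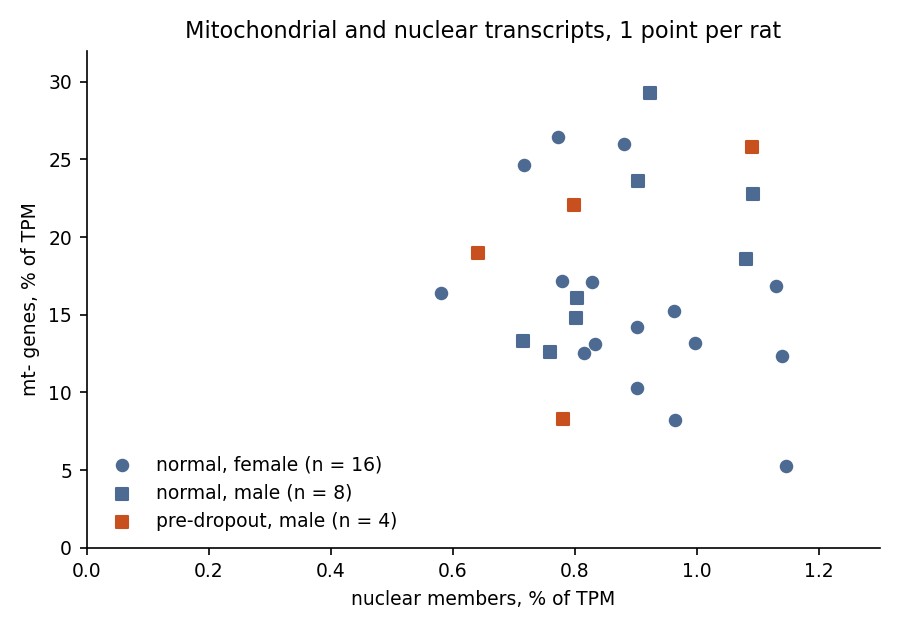
Share of TPM of the mt- genes against that of the nuclear members, with 1 point per rat, squares for males, circles for females and pre-dropout rats in orange. The mt- share spans 5.27 to 29.3% and the nuclear share 0.581 to 1.15%, without a common trend.

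Setting pre-dropout against normal rats asks which genes differ at a density that the paper places just before early dropout. Each rat gave 1 library, so change over time was not measured. The mt- share was 8.29% of TPM in pre-dropout rat 1, 18.97% in rat 2, 22.1% in rat 3 and 25.8% in rat 4. The normal rats had 5.27 to 29.3% with a median of 15.6%. The groups overlapped: 3 normal rats were above the highest and 2 below the lowest pre-dropout rat. The means were 18.8% ± 7.53 (SD, n = 4) and 16.7% ± 6.03 (n = 24), and the difference of 2.11 percentage points was smaller than either SD. It turned to -0.09 against the 8 normal males and to -0.22 without pre-dropout rat 4, and it was 0.68 within the 16 libraries of the higher length ratio. Without pre-dropout rat 1, the lowest of the 4 at 8.29%, the difference was larger than 2.11, so it depended on single rats in both directions. The log2 ratio of the mt- to the nuclear sum differed by 0.27, and by 0.04 within males.

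No member passed the test between the density groups. A quasi-likelihood test was run in edgeR with p adjusted after Benjamini and Hochberg, and a call needed an adjusted p under 0.05 and more than a 2-fold change. Of the 107 members that passed the filter on low counts 0 were called, beside 0 of all 13800 genes tested (0%). Of the members 0 had an unadjusted p under 0.05, beside 394 genes (2.86%). Of the 394, 27 were higher in pre-dropout rats, which is 0.196% of all genes tested. DESeq2 and limma on log2(TPM + 1) also called 0 members, with 4 and 2 at an unadjusted p under 0.05, beside 462 of 17774 genes (2.60%) and 186 of 13800 (1.35%). The main fit had no term for sex, and all pre-dropout rats were male. With sex as a covariate edgeR called 0 members, and 3 of 107 had an unadjusted p under 0.05, beside 601 of 13800 genes. In males only it called 0 members, and 1 of 100 had such a p, beside 118 of 11530 genes. In the main fit the filter kept 8 mt- genes and 99 nuclear members. Of the 107, 52 had an estimate above 0, beside 41.1% of all genes.

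Of the mt- genes, mt-Co1 was 7894 TPM in pre-dropout rat 1, 18128 in rat 2, 17872 in rat 3 and 17662 in rat 4, and 4176 to 20706 TPM in normal rats with a median of 10938 TPM. Rats 2 to 4 lay in the upper part of the normal range and rat 1 below its median. Its log2 fold change was 0.49 (SE 0.32, adjusted p = 0.9999, edgeR). For mt-Nd1 the 4 rats had 37496, 89904, 101334 and 115533 TPM, against 23460 to 142031 TPM in normal rats, and a log2 fold change of 0.27 (SE 0.36). For mt-Nd5 they had 37501, 81469, 100834 and 124534 TPM, against 24945 to 127961 TPM, and a log2 fold change of 0.28 (SE 0.34). In each of the 3 genes the groups overlapped and rat 1 was the lowest of the 4. Within the 16 libraries of the higher length ratio the estimates were 0.30 (SE 0.48) for mt-Co1, 0.071 (SE 0.57) for mt-Nd1 and 0.13 (SE 0.68) for mt-Nd5, and 0 members were called there.

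The smallest p among the members belonged to mt-Cytb, with a log2 fold change of -5.17 (SE 2.58, unadjusted p = 0.0518, adjusted p = 0.9999, edgeR). The pre-dropout rats had 0, 2.02, 32.7 and 36.1 TPM. The normal rats had 0 to 6223 TPM, but their median was 5.34 TPM, so the estimate rests on the 5 normal rats above 500 TPM. Cox4i1 followed, with a log2 fold change of -2.10 (SE 1.06, unadjusted p = 0.0556, adjusted p = 0.9999, edgeR). It had 2.11, 1.34, 1.20 and 13.9 TPM in pre-dropout rats 1 to 4, all below the normal median of 20.9 TPM but within the normal range of 0.194 to 58.7 TPM. Its isoform partner Cox4i2 had 109, 64.2, 125 and 27.8 TPM, against 0 to 324 TPM, and a log2 fold change of -0.56 (SE 0.82).

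By complex the estimates lay on both sides of 0. The median log2 fold change was -0.13 over 36 nuclear subunits of complex I (13 above 0), 0.16 over 4 of complex II (3 above 0), 0.15 over 8 of complex III (5 above 0), 0.19 over 14 of complex IV (8 above 0), -0.13 over 14 of complex V (6 above 0) and -0.14 over 23 assembly or associated factors (10 above 0). It was 0.58 over the 8 mt- genes (7 above 0) and -0.09 over the 99 nuclear members, beside -0.13 over all genes. Over mt-Nd1, mt-Nd5 and mt-Co1 alone, which hold almost all of the mt- TPM, the median was 0.28. When each pre-dropout rat was left out in turn, the mt- median was 0.95 without rat 1, 0.48 without rat 2, 0.26 without rat 3 and 0.996 without rat 4, and the nuclear median ran from -0.32 without rat 4 to -0.0079 without rat 1. Core subunits gave -0.62 (SE 0.45) for Ndufs1, 0.05 (SE 0.37) for Ndufv1, 0.08 (SE 0.29) for Sdha, 0.25 (SE 0.61) for Sdhb, 0.55 (SE 0.39) for Uqcrc1, 0.23 (SE 0.57) for Uqcrfs1, 0.09 (SE 0.74) for Cox5a, -0.19 (SE 0.26) for Atp5a1 and -0.09 (SE 0.27) for Atp5b. The estimate of Sdha turned to -0.055 within the 16 libraries of the higher length ratio. These errors leave room for differences of the size of 1 SE or more, and a missed threshold does not show equal levels.

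Other cell types moved between the libraries as well. The 3 erythrocyte markers in the tables, of 5 on the list, summed to 1878 to 12446 TPM in pre-dropout rats (median 5938) and 117 to 15530 TPM in normal rats (median 2598). The 10 rod markers summed to 203 to 826 TPM (median 525) and 124 to 5450 TPM (median 829), and the 8 pericyte markers to 2512 to 15279 TPM (median 5896) and 2554 to 15030 TPM (median 7165). No marker of these lists was at 0 in every library. Over the 28 libraries the mt- share had a Spearman rho of 0.29 with the erythrocyte markers, -0.43 with the pericyte markers, -0.31 with the endothelial markers and 0.09 with the rod markers, as values that share a TPM total. Their part in the results was not tested.

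Within the 24 normal rats the density ran from 5.90 to 14.5 per square mm, and the question was whether members changed along it. In a fit that includes sex, edgeR called 0 of 107 members at an adjusted p under 0.05, beside 0 of 13677 genes (0%). Of the members 0 had an unadjusted p under 0.05, beside 153 genes (1.12%). Of the 153, 75 had a slope above 0, which is 0.548% of all genes tested. DESeq2 and limma called 0 members with 1 each at an unadjusted p under 0.05, beside 358 of 17708 genes (2.02%) and 384 of 13677 (2.81%). The smallest p among the members was that of mt-Co1, with a slope of -0.44 per 5 per square mm on the log2 scale (SE 0.25, unadjusted p = 0.0875, adjusted p = 1, edgeR). mt-Nd5 had a slope of -0.40 (SE 0.25) and mt-Nd1 of -0.36 (SE 0.27). The next smallest p was that of Ndufb3, an accessory subunit of complex I, with a slope of -3.19 (SE 1.88, unadjusted p = 0.0973), and this gene had a count of 0 in 10 of the 28 libraries. Of the members 58 had a slope above 0, beside 56.3% of all genes. The mt- share and the density had a Spearman rho of -0.13 in these 24 rats and -0.01 in all 28.

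Blood glucose was read as a slope per 100 mg/dL over all 28 rats, with sex as a covariate. The 5 rats over 200 mg/dL had mt- shares of 23.6% (normal rat 2), 18.97% (pre-dropout rat 2), 22.1% (pre-dropout rat 3), 16.8% (normal rat 3) and 18.6% (normal rat 22). They lay within the range of the other 23, of which 5 were above the highest and 15 below the lowest of them. The Spearman rho of the mt- share with glucose was 0.34 over 28 rats, 0.28 in the 16 libraries of the higher length ratio, 0.31 in the other 12, 0.36 in the 12 males and 0.14 in the 16 females. Pearson's r was 0.23 over 28 rats. The nuclear share had a rho of 0.23. The pericyte markers had a median of 5300 TPM in the 5 rats over 200 mg/dL and 8308 TPM in the other 23, and the erythrocyte markers 4958 and 2662 TPM, and their part was not tested.

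**Figure D4:**
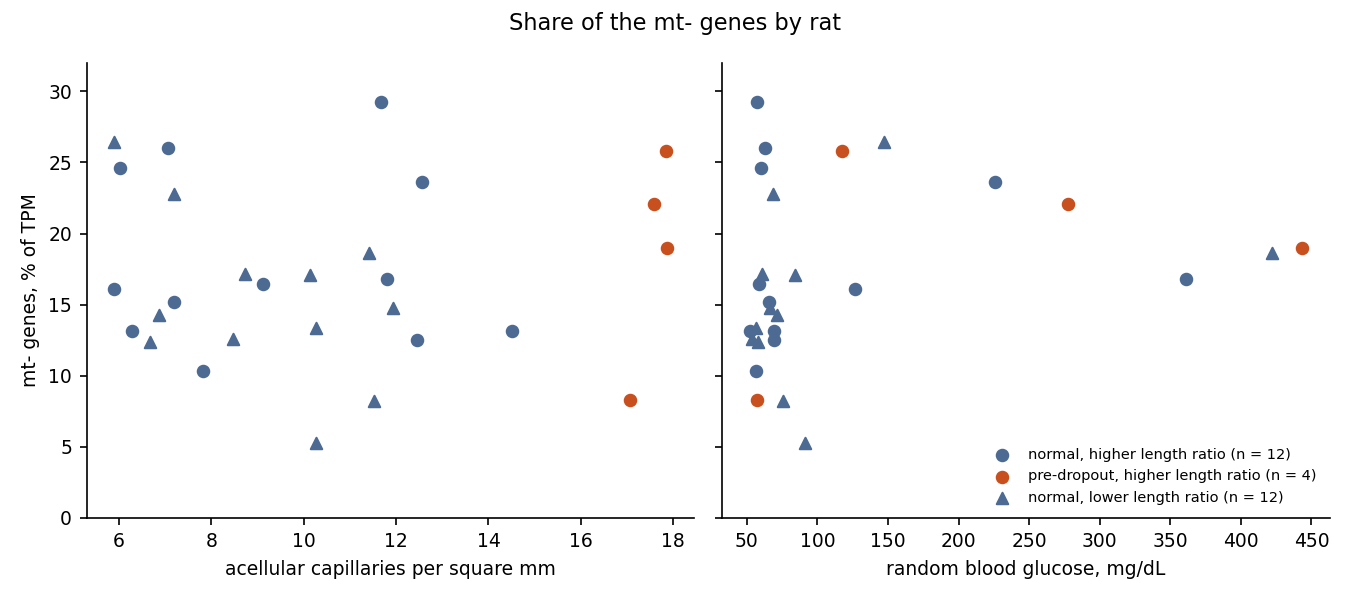
Share of TPM of the mt- genes by rat against acellular capillary density (left) and random blood glucose (right), with pre-dropout rats in orange and triangles for the 12 libraries of the lower length ratio. The pre-dropout rats span 8.29 to 25.8% and the 5 rats over 200 mg/dL 16.8 to 23.6%, both inside the range of the other rats.

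edgeR called 0 of 107 members for glucose at an adjusted p under 0.05, beside 0 of 13800 genes (0%). At an unadjusted p under 0.05 there were 5 members, beside 525 genes (3.80%), and their share of the members, 4.67%, is near that background. DESeq2 and limma called 0 members, with 6 and 4 at an unadjusted p under 0.05, beside 901 of 17774 genes (5.07%) and 429 of 13800 (3.11%). Of the 525 genes, 313 had slopes above 0, which is 2.27% of all genes tested. All 5 members had slopes below 0: Atp5s, the coupling factor B of the ATP synthase, with -1.88 (SE 0.72, adjusted p = 0.992, edgeR), Cox8a, a small subunit of complex IV, with -0.51 (SE 0.21), mt-Cytb with -2.20 (SE 0.93), Ndufb5, an accessory subunit of complex I, with -1.59 (SE 0.69), and Ndufv2 with -0.31 (SE 0.15). Their unadjusted p were 0.0132, 0.0206, 0.0222, 0.0268 and 0.0396, and the last 4 had an adjusted p of 1.

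Of these genes Cox8a and Ndufv2 were read in every library. The 5 rats over 200 mg/dL had 37.2, 11.6, 4.23, 26.8 and 6.75 TPM of Cox8a, in the order of their mt- shares above, and the other 23 had 13.2 to 90.5 TPM with a median of 35.9 TPM. The 3 lowest of the 28 were rats over 200 mg/dL, and the other two lay within the range of the 23. Ndufv2 had 39.5, 22.4, 34.3, 19.5 and 15.7 TPM, against 14.3 to 101 TPM with a median of 36.4 TPM, and the groups overlapped. Atp5s had a count of 0 in 18 libraries and in all 5 rats over 200 mg/dL, and it was listed at 0 in 13 of the other 23. Ndufb5 had a count of 0 in 11 libraries. The 5 rats with mt-Cytb over 500 TPM were at 57.3 to 147 mg/dL.

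The abundant mt- genes had slopes of 0.14 (SE 0.11) for mt-Co1, 0.08 (SE 0.11) for mt-Nd5 and 0.08 (SE 0.12) for mt-Nd1, on the log2 scale per 100 mg/dL. By complex the medians were 0.05 for complex I, 0.05 for complex II, 0.13 for complex III, 0.07 for complex IV and 0.05 for complex V. The median was 0.20 over the 8 mt- genes tested, 0.08 over the 3 abundant ones and 0.054 over the nuclear members. Of the 107 members 70 were above 0, beside 52.4% of all genes. With the 5 rats set against the other 23 in place of a slope, edgeR called 0 members, and the median log2 fold change was 0.55 over the mt- genes, 0.14 over the nuclear members and 0.09 over all genes.

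**Figure D5:**
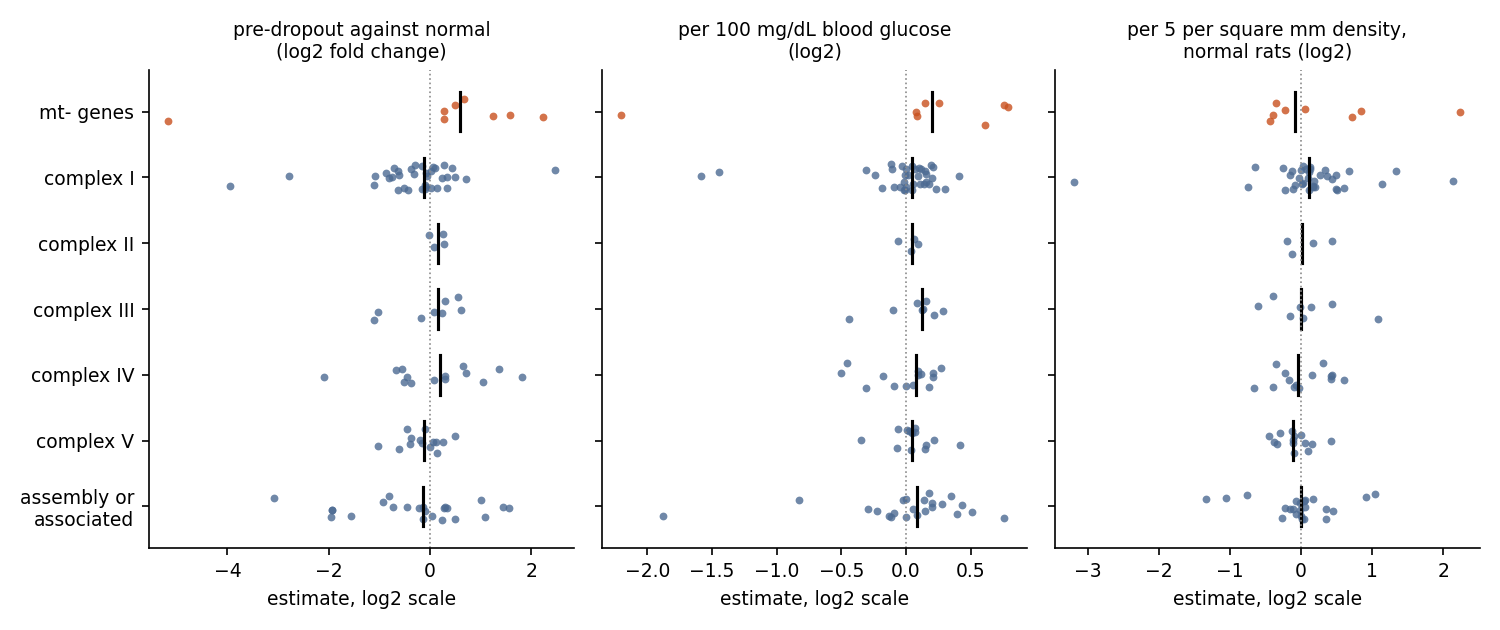
log2 estimates of the 107 members tested, by mt- genes, nuclear subunits of each complex and assembly or associated factors, for pre-dropout against normal rats, the slope on blood glucose and the slope on density; black bars are medians and the dotted line is 0. The bars lie between -0.14 and 0.58 in the left panel, and no point passed the test.

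The genes around the respiratory chain gave the same counts. A set of 5 lists was read: cytochrome c and electron carriers (8 of 9 tested), the citric acid cycle with pyruvate dehydrogenase (15 of 15), upkeep and transcription of mitochondrial DNA (18 of 19), mitochondrial content and import (17 of 17) and the control of respiration under hypoxia (9 of 10). edgeR called 0 genes of these lists in each of the 3 comparisons, and 0 had an unadjusted p under 0.05. Between pre-dropout and normal rats the smallest p in each list had Hccs, the heme lyase of cytochrome c (log2 fold change 1.32, SE 1.15), Pdha1 of pyruvate dehydrogenase (0.87, SE 0.85), Slirp, which stabilises mitochondrial messages (-3.75, SE 2.34), the ADP/ATP carrier Slc25a4 (-0.35, SE 0.28) and the ATP synthase inhibitor Atpif1 (0.68, SE 0.77). In the list of mitochondrial content and import 15 of 17 genes had an estimate below 0, beside 58.9% of all genes, with a median of -0.19 beside -0.13 over all genes. For glucose the smallest p had Etfa (0.24, SE 0.18), Ogdh (0.13, SE 0.10), Tfb1m (-0.99, SE 0.63), Tomm20 (0.17, SE 0.14) and Higd1b (-0.82, SE 0.62). For density within normal rats it had Cyc1 (-0.55, SE 0.54), Fh1 (0.82, SE 0.50), Esrra (0.37, SE 0.27), Tomm70a (-0.62, SE 0.40) and Higd1b (-1.81, SE 1.35).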

How the data were processed

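Expected counts (estimated read counts per gene) and TPM of 18970 genes under mouse symbols were deposited by the authors, with 1 library per rat of whole retinal vasculature. They were taken as values of the authors' comparative RNA-seq pipeline, which reads a species through assembled transcripts and mouse genes, so the length read for a gene can differ from that of the full message. The aligner and counter of these tables are not given in the sources used here, and values from mapping to that species' own genome were not used here. The unit of glucose comes from the methods of the study. No unmapped columns were used.

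Counts were rounded and tested with the quasi-likelihood test of edgeR 4.0.16 under R 4.3.3 (scaling by TMM, filterByExpr with a minimum count of 10, Benjamini-Hochberg adjustment over all genes). Pre-dropout rats were compared with normal rats with no covariate, and slopes on glucose and on density had sex as a covariate. The SE is the estimate over the root of F. Shares, medians and correlations were computed in Python 3.11.15 with pandas 2.3.3 and SciPy 1.17.1. Rats are numbered within a group in accession order, and p-values measure the spread between rats. Scripts were tested on simulated data with a smaller spread than these libraries, so that test does not show what size of change could be found here. The common coefficient of variation between rats that edgeR estimated was 1.31 to 1.33.

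Alternatives were DESeq2 1.42.0 and its size factors, limma 3.58.1 on log2(TPM + 1), scaling without the mt- genes, no filter, sex as a covariate, males only, rats of normal density, glucose over 200 mg/dL as a group, libraries of at least 1000000 counts, and each pre-dropout rat left out. The split by table lengths was chosen after seeing the data. The members, roles, gene lists and tests were chosen with earlier results of these data known. Named genes are the mt- genes, core nuclear subunits, isoform pairs, the most abundant subunit of each complex, the 2 members with the smallest p where none was called, and the gene with the smallest p in each list, and others were named after their values were seen. Values of 1 core subunit are not reported here. No sequences or coordinates are given.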

Additional observations from a re-analysis of the deposited data

Results flagged for a closer look

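Each value below lay far from the others of its group of 4 pre-dropout rats or 5 rats over 200 mg/dL, by the gap to its neighbour over the range of the group (Dixon's test at the 95% level). There were 9 such values in 35 groups examined, and chance gives about 1 in 20 groups of normally distributed values, which these TPM are not: where all rats but 1 are at 0, as for Atp5s and Ndufb3 in pre-dropout rats, the value above 0 meets the rule by construction. Among pre-dropout rats the lowest mt-Co1 value was 7894 TPM in rat 1, the highest Cox4i1 value 13.9 TPM in rat 4, the highest Atp5s value 14.2 TPM in rat 1 and the highest Ndufb5 value 20.5 TPM in rat 1. Also in that group, rat 3 had the highest Ndufv2 value, 34.3 TPM, and the highest Ndufb3 value, 14.01 TPM. Among rats over 200 mg/dL the highest mt-Cytb value was 32.7 TPM in pre-dropout rat 3, the highest Uqcrc1 value 57.9 TPM in pre-dropout rat 2 and the highest Ndufb3 value 88.8 TPM in normal rat 22. Atp5s, Ndufb5 and Ndufb3 had a count of 0 in 10 or more of the 28 libraries.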

How the results depend on the processing

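The count of members called stayed at 0 in the 3 comparisons under the alternatives run, except without the filter on low counts. There edgeR called 1 member for glucose (Ndufaf8, with counts in 1 library) and 1 for density within normal rats (Cox8c, with counts in 2 libraries). Over all genes the calls without the filter were 72 between density groups, 152 for glucose and 45 for density, and DESeq2 called 4, 56 and 18. With normal rats only, 2 genes were called for glucose. Of single members the log2 fold change of Sdha between density groups turned from 0.08 to -0.074 with length set as a covariate and to -0.055 in the libraries of the higher length ratio, and that of Atp5b was -0.23 to 0.086 when each pre-dropout rat was left out, with the value above 0 without rat 3. The cause was not tested. Direction was compared only for 10 genes between density groups, 8 for glucose and 4 for density within normal rats, not for every member. The other 243 alternatives on these genes kept direction and side of the threshold. The median over the mt- genes between density groups was 0.58, and it was 1.04 with sex as a covariate and 0.20 with length set. On log2(TPM + 1) with limma the median of all genes moved from -0.13 to 0.08, so estimates there read relative to that shift. No paired analysis was possible because the replicate numbers name single rats in accession order and pair none. Depth limits the rarer members: the 2 libraries under 1000000 counts allow up to 19.6 and 3.21 CPM at a count of 0.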

Other observations

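mt-Atp6, the only mt- gene of complex V in the tables, was read at different ranges in the sexes among normal rats. The 8 males had 0 to 11.7 TPM with a median of 5.44 TPM, and the 16 females had 0 to 92.03 TPM with a median of 20.3 TPM. The ranges overlap, this gene was singled out after its values were seen, and no test of the sexes was run. The 4 pre-dropout males had 3.82 to 106 TPM.

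The ratio of mt-Co1 to mt-Nd1 was narrow beside the levels of either gene. On the log2 scale of TPM it was -3.32 to -2.22 over the 28 rats, with medians of -2.41 in pre-dropout and -2.68 in normal rats. The summed nuclear subunits of complex V were 1060 to 1590 TPM in pre-dropout rats and 1133 to 2455 TPM in normal rats, with medians of 1421 and 1618 TPM, and the groups overlapped.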
